A study of Rattus norvegicus with 12 samples.

Results

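The genes described here make sterols and fatty acids or control that synthesis. They are 32 genes named in a list with 5 roles: the mevalonate pathway, the squalene and late sterol steps, the control of SREBP (the sterol regulatory element binding proteins), fatty acid synthesis, and elongation and desaturation. A gene was measured where the array's annotation named it alone for at least 1 probe set, the group of short probes that reports 1 transcript. This held for 31 of the 32 genes, out of 14214 genes named in the whole series, and they had 50 probe sets. The rule itself uses names alone, though the list was drawn up with earlier results of these data known. Hmgcs1, the first committed enzyme of the mevalonate branch, had no probe set named for it alone and has no value here.

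The arrays measured RNA of kidney cortex from male rats, 3 arrays in each of 4 groups, and the study asked whether diabetes acts differently when it begins before or after puberty. Rats of the 10-week groups were injected at 4 weeks of age and rats of the 20-week groups at 14 weeks, and the protocol lasted 6 weeks in all groups. Nondiabetic (ND) rats received vehicle and, 3 days later, a palmitate vehicle pellet. Diabetic (DM) rats received 65 mg/kg of intravenous streptozocin, which destroys pancreatic beta cells, then an insulin palmitate pellet, and their blood glucose is given as 350 to 450 mg/dl. The label of 10-week diabetic replicate 1 names an insulin palmitate vehicle pellet instead. Whether insulin was given there is therefore not clear. Streptozocin, hyperglycaemia and the insulin pellet went together, so their parts in a difference cannot be told apart. The rats were littermates of a strain that the labels do not name, and no label ties an array to 1 animal, so the spread behind the p-values is that between these samples and may be technical.

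Cells make cholesterol from acetyl-CoA through mevalonate, squalene and a series of late sterols, and they make fatty acids from the same precursor. Both routes are switched on by SREBP transcription factors, which Scap carries to the Golgi when sterols are low and which the Insig proteins hold back when sterols are high. Srebf2 is known mainly for the sterol genes and Srebf1 for the fatty acid genes, and in liver insulin raises Srebf1. The proximal tubule, which makes up most of the cortex, takes up and burns fatty acids as its main fuel.

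All 8 proximal tubule markers examined lay above the limit for dim signals, and their summed signal was 118500 to 140000 on the 12 arrays. For the Gapdh control, the ratio of the 3' to the 5' signal, a sign of RNA quality, was 1.41 to 1.5 on the 10-week arrays, 1.42 to 2.09 on the 20-week nondiabetic arrays and 1.6 to 1.76 on the 20-week diabetic arrays. The highest value, 2.09, was that of 20-week nondiabetic replicate 1. For the beta-actin control the ratio was 6.75 to 7.47 (nondiabetic) and 6.3 to 8.57 (diabetic) at 10 weeks and 6.87 to 11.2 and 7.46 to 11.4 at 20 weeks, where it was highest on diabetic replicate 2, so this sign of RNA quality does not single out 1 array. The part of RNA quality in the differences was not tested. The doubted arrays below are 20-week nondiabetic replicate 1 and 10-week diabetic replicate 1, and results are given without both of them where that ends a call. Correlations between arrays were 0.941 to 0.976. Values are the deposited linear signals in arbitrary units, which can be compared between arrays for 1 probe set but not between genes.

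Of the 31 measured genes, 29 had a probe set above the limit for dim signals (a geometric mean of 70.9 over the 12 arrays) and were tested. A gene was counted by its brightest probe set, and it is said to have risen or fallen where the adjusted p over all 18625 probe sets was under 0.05 in limma. Over both ages, meaning the average of the diabetes differences at 10 and 20 weeks, 2 of the 29 genes rose and 6 fell, and 21 did not pass. Of all 10581 genes tested, 5.58% were called in this comparison, 2.77% higher and 2.81% lower. The 2 genes that rose, Tm7sf2 and Dhcr7, reduce late sterols. Of the 6 that fell, 4 make or desaturate fatty acids (Acly, Fasn, Fads1 and Fads2), and Nsdhl and Sc5d belong to the late sterol steps. The median log2 difference was -0.17 over the 29 genes and -0.005 over all genes tested. It was -0.13 over the sterol enzymes, -0.46 over the fatty acid enzymes and -0.28 over the 5 SREBP control genes.

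Of the 8 called genes, Tm7sf2, Dhcr7, Acly, Fads1 and Fads2 kept their call over both ages under each alternative processing and without each single array, so the 250 bases before their start sites are shown. The sequences are those of RefSeq on GRCr8, written 5′ to 3′ on the strand of the gene. Capitals mark matches to the GC box GGGCGG, to the NF-Y box CCAAT, or to their reverse complements CCGCCC and ATTGG; 2 GC boxes overlap before Dhcr7.
Tm7sf2 (chr1:212789542-212789791, minus strand): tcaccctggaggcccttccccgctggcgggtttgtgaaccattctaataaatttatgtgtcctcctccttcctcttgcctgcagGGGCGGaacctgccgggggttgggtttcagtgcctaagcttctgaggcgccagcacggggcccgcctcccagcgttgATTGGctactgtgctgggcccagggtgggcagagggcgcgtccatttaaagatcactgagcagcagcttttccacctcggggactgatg
Dhcr7 (chr1:208444184-208444433, plus strand): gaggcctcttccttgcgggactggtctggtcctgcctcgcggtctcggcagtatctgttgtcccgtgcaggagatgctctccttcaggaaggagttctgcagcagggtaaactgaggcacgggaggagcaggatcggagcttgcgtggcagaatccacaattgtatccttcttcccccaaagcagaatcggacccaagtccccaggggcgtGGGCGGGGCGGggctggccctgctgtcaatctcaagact
Acly (chr10:85963632-85963881, minus strand): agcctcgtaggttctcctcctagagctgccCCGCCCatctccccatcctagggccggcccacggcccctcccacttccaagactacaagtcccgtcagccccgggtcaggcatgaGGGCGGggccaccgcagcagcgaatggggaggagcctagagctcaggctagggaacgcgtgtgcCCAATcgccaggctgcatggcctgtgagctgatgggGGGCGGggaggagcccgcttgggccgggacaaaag
Fads1 (chr1:216252442-216252691, plus strand): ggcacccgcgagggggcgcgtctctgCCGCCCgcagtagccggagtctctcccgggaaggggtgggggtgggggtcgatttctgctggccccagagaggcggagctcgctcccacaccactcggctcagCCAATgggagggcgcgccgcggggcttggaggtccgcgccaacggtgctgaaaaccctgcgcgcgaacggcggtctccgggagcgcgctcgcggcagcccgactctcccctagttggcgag
Fads2 (chr1:216172034-216172283, minus strand): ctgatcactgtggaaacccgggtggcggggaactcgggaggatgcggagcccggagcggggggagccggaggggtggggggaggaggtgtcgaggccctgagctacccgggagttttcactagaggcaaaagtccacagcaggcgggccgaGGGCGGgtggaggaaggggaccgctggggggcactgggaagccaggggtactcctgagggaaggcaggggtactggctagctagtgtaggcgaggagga

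All 5 windows hold a GC box, and those of Tm7sf2, Acly and Fads1 hold an NF-Y box as well. Both kinds of match occur before genes that rose and before genes that fell. Over the whole list, 26 of the 32 genes had an entry in the promoter table, matched by symbol. Fasn, a called gene, was among the 6 without one and is not in the counts below. The GC box was found before 20 of the 26 genes (76.9%) and before 30.5% of all 33469 promoters, and the NF-Y box likewise before 20 of 26 (76.9%) and before 34.0% of all promoters. The E-box CACGTG was found before 4 of 26 (15.4%; Sc5d, Insig1, Scap and Elovl5) and before 5.6% of all promoters. The classical sterol regulatory element TCACNCCAC, searched on both strands, was found before 0 of 26 and before 1.0% of all promoters. No other form of the element was searched, and with a share this low 0 of 26 does not set the members apart. These are matches of letters within 250 bases, and the base composition of the windows was not taken into account.

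**Figure D1:**
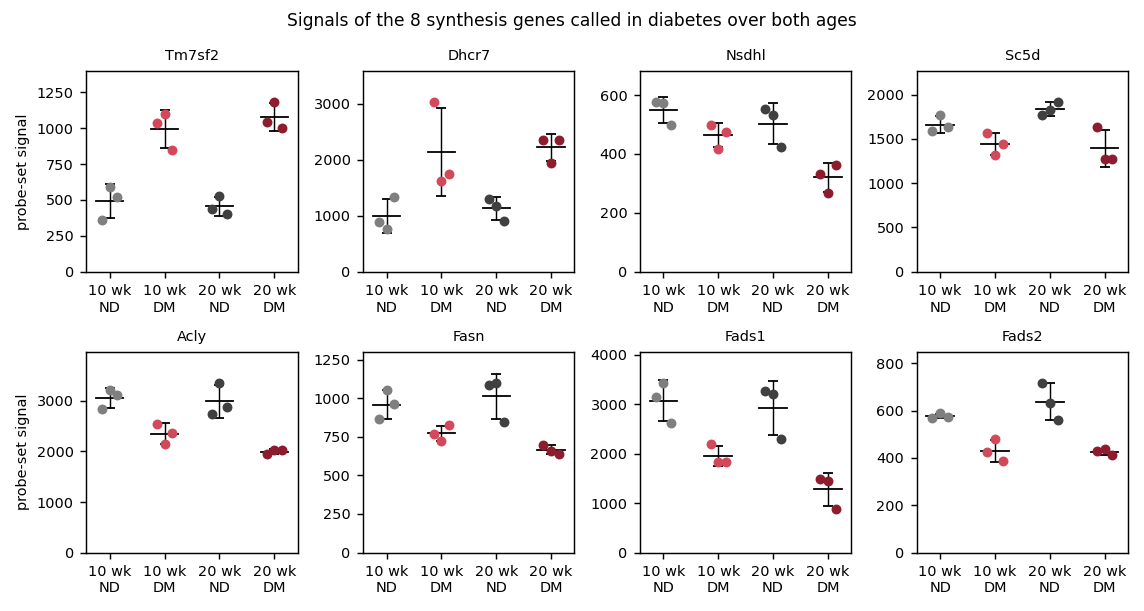
Deposited probe-set signal (linear, arbitrary units, vertical axes from 0) of the 8 genes called over both ages, by group. Points are the 3 arrays of a group in the order of their replicate number, the long bar is the mean and the whisker is 1 SD. Tm7sf2 and Dhcr7 were higher on all 6 diabetic arrays than on all 6 nondiabetic arrays, and Acly, Fasn, Fads1 and Fads2 were lower; Nsdhl overlaps within 10 weeks, and Sc5d overlaps when both ages are pooled.

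The 5 tested genes of the mevalonate pathway, which turns acetyl-CoA units into the isoprenoid building blocks of sterols, did not pass at either age or over both ages. Over both ages their log2 differences ranged from -0.17 to 0.08, with a median of -0.1. Mevalonate kinase, Mvk, gave -0.17 (95% confidence interval -0.51 to 0.16). Fdps, the farnesyl diphosphate synthase, gave 0.08 with an interval of -0.07 to 0.23. The signal of Fdps was 1207, 1362 and 1378 in 10-week nondiabetic rats and 1475, 1308 and 1346 in 10-week diabetic rats, and 1179, 1287 and 1178 against 1292, 1423 and 1190 at 20 weeks. The diabetic and nondiabetic arrays of Fdps overlapped at both ages. The other 3 genes were Pmvk, the phosphomevalonate kinase (-0.09), Mvd, the mevalonate diphosphate decarboxylase (-0.12), and Idi1, the isopentenyl diphosphate isomerase (-0.10 by both of its probe sets). A dimmer probe set of Mvk gave 0.23, opposite in sign to the brighter one, and did not pass either.

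Among the 11 tested genes of the squalene and late sterol steps, 2 rose, 2 fell and 7 did not pass over both ages. Tm7sf2 is a sterol C14-reductase that acts just after Cyp51. Its signal was 358.3, 588.8 and 521.5 in nondiabetic and 1038, 1098 and 849.9 in diabetic rats at 10 weeks. At 20 weeks it was 436.1, 530.8 and 400.2 in nondiabetic and 1044, 1186 and 1003 in diabetic rats. Each diabetic array lay above each nondiabetic array, at both ages and across them. The log2 difference over both ages was 1.15 ± 0.13 (SE; adjusted p = 0.000447), or 2.21-fold. At 10 weeks it was 1.05 ± 0.18 (adjusted p = 0.0326) and at 20 weeks 1.25 ± 0.18 (adjusted p = 0.00375). The 10-week call was kept without 10-week nondiabetic replicate 3, 10-week diabetic replicate 3, 20-week nondiabetic replicate 2 or 20-week nondiabetic replicate 3. It was lost without any 1 of the other 8 arrays (adjusted p 0.0502 to 0.145) and without both doubted arrays (1.01 ± 0.21, adjusted p = 0.192).

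Dhcr7 makes cholesterol from 7-dehydrocholesterol, the last step of the main route. In 10-week rats its signal was 886.3, 759.6 and 1329 without diabetes and 3035, 1621 and 1747 with it. In 20-week rats the values were 1299, 1179 and 907.4 against 2354, 1947 and 2355. The groups did not overlap at either age. The highest array, 3035, was the 10-week diabetic one whose label names an insulin palmitate vehicle pellet. Over both ages Dhcr7 rose by a log2 difference of 1.04 ± 0.17 (adjusted p = 0.00445), or 2.05-fold, and without both doubted arrays the value was 0.95 (adjusted p = 0.00987). At 10 weeks the difference was 1.09 ± 0.24 and did not pass (adjusted p = 0.101), and at 20 weeks it was 0.99 ± 0.24 (adjusted p = 0.0497). The 20-week call was kept without 10-week nondiabetic replicate 3, 10-week diabetic replicate 1 or 10-week diabetic replicate 2 and was lost without any 1 of the other 9 arrays (adjusted p 0.0529 to 0.155). It was also lost with array weights, median centring, no filter on dim probe sets and no intensity trend (adjusted p up to 0.112).

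Nsdhl removes a methyl group from C4 of the sterol ring, in the steps between Tm7sf2 and Ebp. Its brighter probe set read 577.8, 572.7 and 496.9 without and 497.3, 418 and 474.1 with diabetes at 10 weeks, and 551.3, 532.3 and 422.5 against 332.4, 266.7 and 364 at 20 weeks. The groups overlapped at 10 weeks, by 1 array each, and were apart at 20 weeks. The log2 difference was -0.45 ± 0.11 over both ages (adjusted p = 0.0338) and -0.65 ± 0.15 at 20 weeks (adjusted p = 0.0406). The call over both ages was kept without 10-week nondiabetic replicate 3, 20-week nondiabetic replicate 3 or 20-week diabetic replicate 3 and lost without any 1 of the other 9 arrays (adjusted p 0.0521 to 0.0847). The 20-week call was kept without 10-week nondiabetic replicate 3, 10-week diabetic replicate 2 or 20-week nondiabetic replicate 3 and lost without any 1 of the other 9 (adjusted p 0.0501 to 0.14). Both calls were lost without both doubted arrays (adjusted p = 0.0966 and 0.135) and with no intensity trend (0.0544 and 0.0724), and the 20-week call also with the 2 groups fitted alone (0.121) and with no filter on dim probe sets (0.0552). The dimmer probe set of Nsdhl gave -0.33 over both ages and did not pass (adjusted p = 0.0695), although its 6 diabetic arrays, at 302.5 to 382.2, all lay below its nondiabetic arrays, at 397.6 to 499.1.

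Sc5d, the lathosterol oxidase, makes the substrate of Dhcr7. The signal of its brightest probe set was 1587, 1768 and 1632 in nondiabetic and 1562, 1316 and 1438 in diabetic rats at 10 weeks, and 1766, 1830 and 1921 against 1630, 1273 and 1272 at 20 weeks. The groups did not overlap within either age, at 10 weeks by a narrow margin. Sc5d fell by 0.31 ± 0.08 on the log2 scale over both ages (adjusted p = 0.0383), and its other probe sets gave -0.30 and -0.24 without passing. The difference at 20 weeks, -0.41, did not pass (adjusted p = 0.0645). The call was kept without 10-week diabetic replicate 1 or 20-week diabetic replicate 1 and lost without any 1 of the other 10 arrays (adjusted p 0.053 to 0.0924). It was also lost without both doubted arrays (adjusted p = 0.0587), with no filter on dim probe sets (0.0508) and with no intensity trend (0.0865). So Sc5d and Dhcr7, which act one after the other, had differences of opposite sign over both ages.

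The other 7 genes of these steps ranged from -0.25 to 0.29 over both ages. Fdft1, the squalene synthase, had the highest of these values, 0.29 (interval 0.03 to 0.54, adjusted p = 0.217). Its 10-week arrays read 1058, 1269 and 1373 without and 1824, 1384 and 1583 with diabetes and did not overlap, while at 20 weeks 1246, 1555 and 967 overlapped with 1485, 1257 and 1522. Sqle, the squalene epoxidase and a rate-limiting enzyme of the pathway, gave -0.25 (adjusted p = 0.645), with 203.8 to 412.4 on the nondiabetic and 154.1 to 353.5 on the diabetic arrays. Lss, which closes the sterol rings, gave -0.21, and Msmo1, the C4-methylsterol oxidase, gave -0.14. Ebp, the sterol isomerase, lay near 0 at -0.01 (interval -0.17 to 0.14). Cyp51, the lanosterol demethylase whose product Tm7sf2 reduces, gave -0.17 by its brighter and -0.44 by its dimmer probe set (adjusted p = 0.391 and 0.222). Hsd17b7, a sterol ketone reductase, gave -0.23 by its brighter and 0.26 by its dimmer probe set, with neither passing.

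The dimmer probe set of Hsd17b7 read 110.4, 187.2 and 161.1 against 118.1, 116.8 and 100.5 at 10 weeks, and 73.17, 90.75 and 56.34 against 149, 133.7 and 134 at 20 weeks. Its diabetic arrays overlapped the nondiabetic ones at 10 weeks and lay above them at 20 weeks. The interaction (the 10-week minus the 20-week difference) was -1.37 ± 0.37 for this probe set and did not pass (adjusted p = 0.439). The brighter probe set gave -0.63 ± 0.40 (adjusted p = 0.708), and the 20-week nondiabetic signals of the dimmer one lay near the limit of 70.9.

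**Figure D2:**
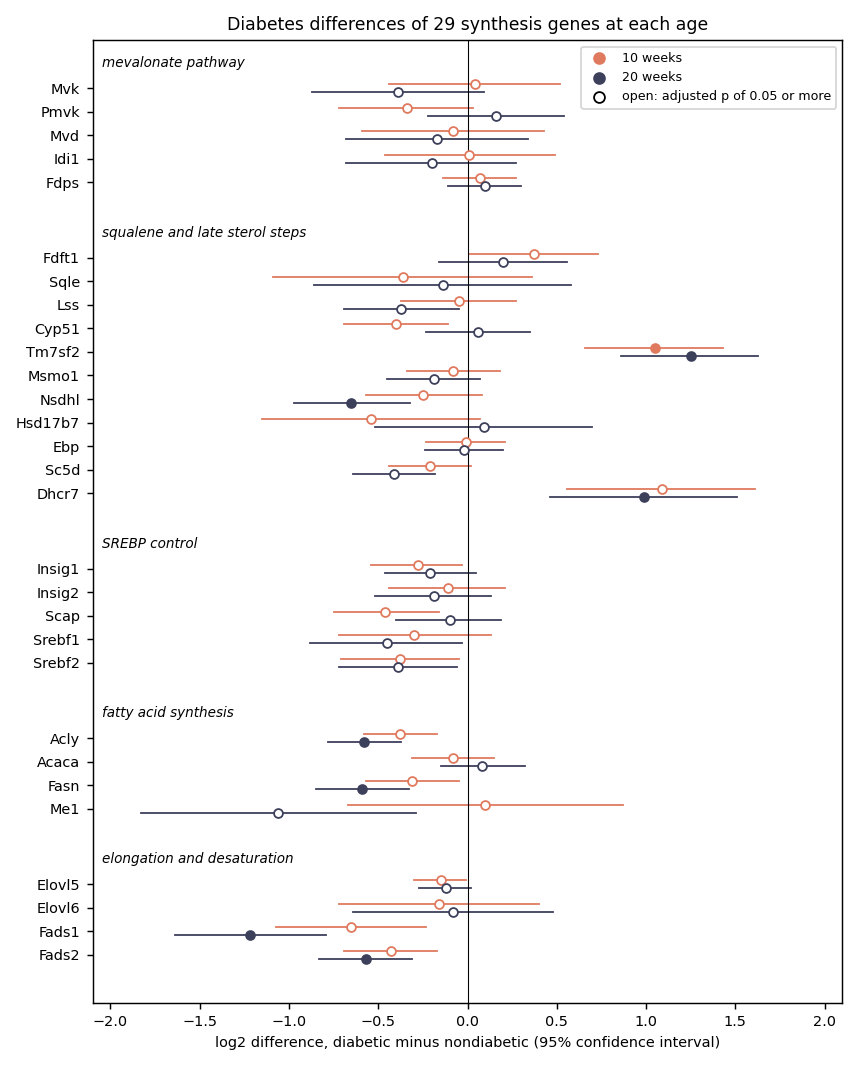
Log2 difference between diabetic and nondiabetic rats at 10 weeks (light) and 20 weeks (dark) for the brightest probe set of the 29 tested genes, ordered by role, with 95% confidence intervals; filled points have an adjusted p under 0.05. Tm7sf2 and Dhcr7 lie near 1 at both ages, and the largest fall at 20 weeks is that of Fads1, at -1.22.

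Of the 5 SREBP control genes, which set the output of both routes, none passed over both ages, although all 5 had negative differences, from -0.38 to -0.15, and 4 of them an unadjusted p under 0.05. Of all genes tested, 20.5% had an unadjusted p under 0.05 in this comparison, 10.1% with a negative difference. Srebf2 read 682.4, 885.3 and 818 in nondiabetic and 673.7, 556.1 and 598.9 in diabetic rats at 10 weeks, and 882.4, 728.1 and 579.7 against 583.5, 534.4 and 533.4 at 20 weeks. The groups were apart at 10 weeks and overlapped by 1 array each at 20 weeks. Its log2 difference was -0.38 over both ages (interval -0.62 to -0.15, adjusted p = 0.0669). Srebf1 gave -0.37 by its brighter probe set (interval -0.68 to -0.07, adjusted p = 0.168) and -0.44 by its dimmer one (adjusted p = 0.101). The brighter Srebf1 probe set overlapped between the groups at 10 weeks, with 503.2, 658.5 and 906.9 against 565.1, 506.5 and 567.1. At 20 weeks its nondiabetic signals of 1061, 875.3 and 712.7 lay above the diabetic ones of 561.2, 706.4 and 651.3.

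Scap, the escort of the SREBPs, gave -0.28 over both ages (adjusted p = 0.139). At 10 weeks its signals of 1055, 1159 and 769.8 without diabetes lay above those of 715.6, 682.6 and 746.1 with it, and at 20 weeks 966.1, 816.7 and 813.2 overlapped with 823.1, 779.9 and 806.5. Insig1, itself a textbook target of SREBP, gave -0.24 (adjusted p = 0.131). Its nondiabetic signals were 1357, 1363 and 1007 at 10 weeks and 1051, 1034 and 983 at 20 weeks, against diabetic signals of 963.7, 1067 and 1008 and of 842.4, 955.2 and 864.6. The groups of Insig1 overlapped at 10 weeks and were apart at 20 weeks. Insig2 gave -0.15 by its brighter and 0.10 by its dimmer probe set. The arrays measure transcripts, so the cleavage that activates the SREBP proteins was not measured.

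**Figure D3:**
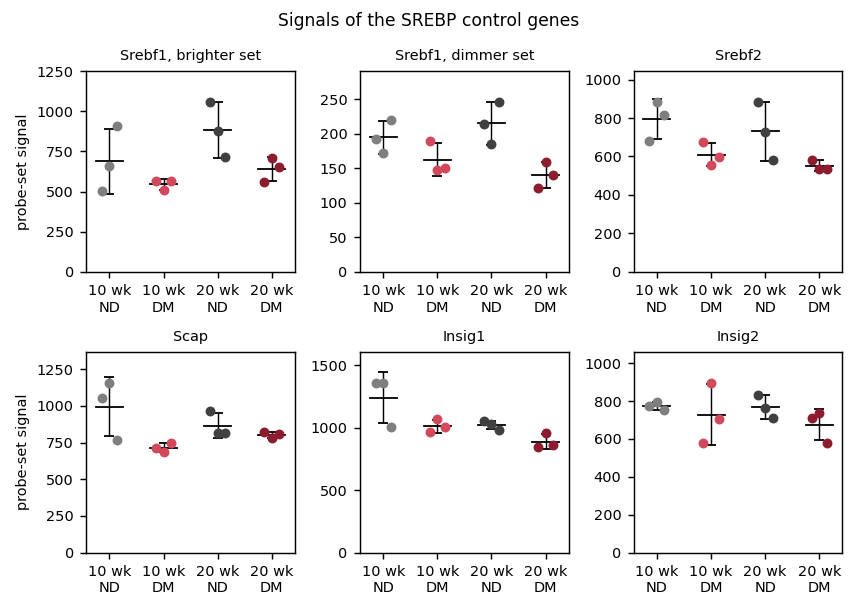
Deposited probe-set signal (linear, arbitrary units, vertical axes from 0) of the SREBP control genes by group, with both tested probe sets of Srebf1. Points are the 3 arrays of a group, the long bar is the mean and the whisker is 1 SD. The diabetic mean is below the nondiabetic mean of the same age in each panel, and none of the 5 genes passed over both ages. The dimmer tested probe set of Insig2 is not drawn. Its diabetic means were above the nondiabetic ones, at 291 against 252 at 10 weeks and 253 against 245 at 20 weeks.

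In fatty acid synthesis, 2 of the 4 tested genes fell over both ages. Acly, the ATP citrate lyase that supplies cytosolic acetyl-CoA to both routes, read 2841, 3207 and 3121 in nondiabetic and 2552, 2153 and 2358 in diabetic rats at 10 weeks. At 20 weeks the values were 2737, 3364 and 2875 against 1948, 2024 and 2026. Each diabetic array was below each nondiabetic array. Acly fell by 0.48 ± 0.07 on the log2 scale over both ages (adjusted p = 0.0017) and by 0.58 ± 0.09 at 20 weeks (adjusted p = 0.00718). At 10 weeks the difference was -0.38 ± 0.09 and did not pass (adjusted p = 0.146). The interval of the interaction, -0.09 to 0.49, includes 0.

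Fasn, the fatty acid synthase that builds palmitate, had a brighter probe set at 862.5, 1055 and 960.2 against 765.9, 724.8 and 826.3 at 10 weeks and at 1087, 1102 and 845.7 against 700.2, 660.6 and 639.2 at 20 weeks. All 6 diabetic arrays were below all 6 nondiabetic arrays. The log2 difference over both ages was -0.45 ± 0.09 (adjusted p = 0.0101), and without both doubted arrays it was -0.42 and no longer passed (adjusted p = 0.0541). At 20 weeks the difference was -0.59 ± 0.12 (adjusted p = 0.0232). This call was lost without 20-week nondiabetic replicate 1 or 2 or 20-week diabetic replicate 2 or 3 (adjusted p 0.0659 to 0.0945), without both doubted arrays (0.0907), with no intensity trend (0.0567) and with the 2 groups fitted alone (0.0684). The dimmer Fasn probe set gave -0.54 ± 0.14 over both ages (adjusted p = 0.0498), a call that was kept without 10-week diabetic replicate 1 and lost without any 1 of the other 11 arrays (adjusted p 0.0666 to 0.103). That call was also lost without both doubted arrays (0.0805), with no filter on dim probe sets (0.0972), with array weights (0.0582) and with quantile normalization (0.0512).

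Acaca, the acetyl-CoA carboxylase of the cytosol that commits carbon to fatty acids, did not pass. Its signal was 559.4, 638.8 and 568.6 against 594.4, 516.9 and 561.2 at 10 weeks and 536.4, 531.1 and 526.7 against 537.2, 618.5 and 536.2 at 20 weeks. The groups overlapped at both ages, and the log2 difference over both ages was 0.00 with an interval of -0.16 to 0.17. So of 3 enzymes that act in sequence, the first and the last fell and the middle one did not pass. Acacb, the carboxylase at the mitochondrion, had signals of 2.41 to 55.34 and was too dim to test.

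Me1, the malic enzyme that supplies NADPH for fatty acid synthesis, varied widely between arrays of a group. Its brighter probe set read 1928, 1992 and 2937 against 3397, 1868 and 2196 at 10 weeks, and 4530, 3427 and 2315 against 2897, 1034 and 1322 at 20 weeks. The groups overlapped at both ages. The log2 difference was 0.10 at 10 weeks and -1.06 ± 0.35 at 20 weeks (adjusted p = 0.144). The dimmer probe set read 1879, 1980 and 1391 in nondiabetic and 1127, 540.1 and 692.8 in diabetic rats at 20 weeks, where the groups were apart. There it fell by 1.21 ± 0.27 on the log2 scale (adjusted p = 0.0359), while at 10 weeks it gave 0.15.

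The 20-week call of the dimmer Me1 probe set was lost without 10-week nondiabetic replicate 2, 20-week nondiabetic replicate 1 or 2, or 20-week diabetic replicate 2 or 3 (adjusted p 0.0514 to 0.129). It was also lost without both doubted arrays (0.0688), with no intensity trend (0.0896), with the 2 groups fitted alone (0.0561) and as the mean of both Me1 probe sets (0.0725). The interaction was 1.16 ± 0.50 by the brighter and 1.35 ± 0.38 by the dimmer Me1 probe set, and neither passed (adjusted p = 0.603 and 0.466).

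Of the 4 tested genes of elongation and desaturation, both desaturases fell and both elongases did not pass over both ages. Fads1, the delta-5 desaturase that makes arachidonic acid, read 3148, 3438 and 2627 in nondiabetic and 2190, 1841 and 1827 in diabetic rats at 10 weeks. At 20 weeks it read 3272, 3205 and 2291 against 1488, 1455 and 884.7. No diabetic array reached the lowest nondiabetic one. Fads1 fell by 0.93 ± 0.14 on the log2 scale over both ages (adjusted p = 0.00243), or 1.91-fold. The 20-week difference was -1.22 ± 0.20 (adjusted p = 0.00653) and the 10-week difference -0.65 ± 0.20 (adjusted p = 0.229). The difference between the ages, 0.57 with an interval of -0.03 to 1.16, did not pass (adjusted p = 0.641).

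Fads2, the delta-6 desaturase that starts the same route, read 569.8, 589.3 and 572.8 against 424.1, 479.5 and 387.4 at 10 weeks. At 20 weeks it read 718.7, 630.1 and 561.9 against 429, 437.7 and 411.5. The 6 diabetic arrays were again all below the 6 nondiabetic ones. The log2 difference was -0.50 ± 0.09 over both ages (adjusted p = 0.00512), -0.43 at 10 weeks (adjusted p = 0.206) and -0.57 ± 0.12 at 20 weeks (adjusted p = 0.0263). The 20-week call of Fads2 was lost without 20-week nondiabetic replicate 1 or 2 or without any 20-week diabetic replicate (adjusted p 0.066 to 0.0932), without both doubted arrays (0.101) and with the 2 groups fitted alone (0.0801). Fads1 and Fads2 are neighbours on chromosome 1 of the reference genome, beside Fads3.

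Elovl5, which lengthens the polyunsaturated products of Fads2, gave -0.14 by its brighter probe set (interval -0.24 to -0.03, adjusted p = 0.138). Its dimmer probe set gave -0.63 (adjusted p = 0.102). The brighter one read 5374, 5517 and 5464 against 5079, 4739 and 4891 at 10 weeks, with no overlap, and 5136, 5635 and 5354 against 4803, 5237 and 4768 at 20 weeks, with overlap. Elovl6, which lengthens palmitate, gave -0.12 and -0.11 by its 2 tested probe sets. Scd, a stearoyl-CoA desaturase, had signals of 3.313 to 54.91 and was too dim to test.

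Across all 12 arrays, Tm7sf2 and Dhcr7 were the members with all 6 diabetic arrays above all 6 nondiabetic arrays, which held for 1.62% of all genes tested. Acly, Fasn, Fads1 and Fads2 were those with all 6 below, which held for 1.71% of all genes. Of the 29 members, 13 had more than 1 tested probe set. The probe sets of 10 of these genes had differences of 1 sign over both ages, and those of Mvk, Hsd17b7 and Insig2 had both signs. Counted by probe set, 9 of 43 were called over both ages, against 4.47% of all probe sets tested, and they named the same 8 genes.

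**Figure D4:**
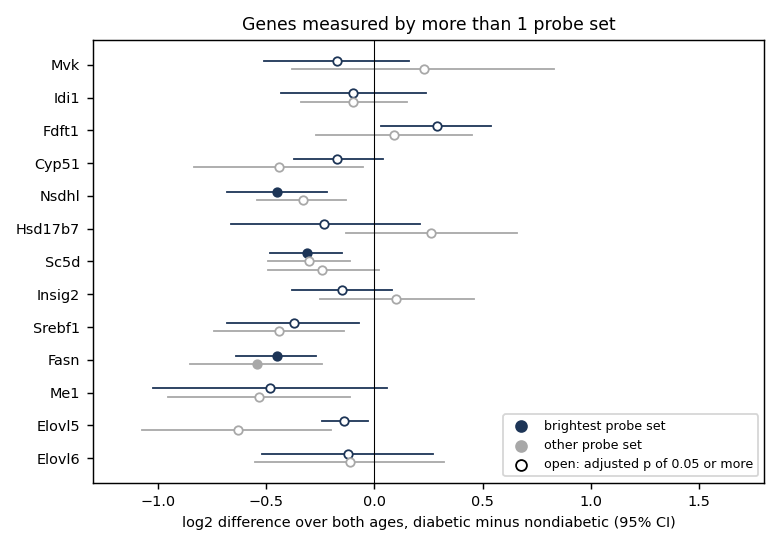
Log2 difference between diabetic and nondiabetic rats over both ages, with 95% confidence intervals, for the 13 genes with more than 1 tested probe set. Dark points are the brightest probe set of a gene, grey points the others, and filled points have an adjusted p under 0.05; Mvk, Hsd17b7 and Insig2 have points on both sides of 0, and both probe sets of Fasn are filled.

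The comparisons at each age use separate arrays and share the estimate of the spread. At 10 weeks 1 member passed, Tm7sf2, where 0.425% of all genes were called (0.17% higher, 0.255% lower). At 20 weeks 2 members rose (Tm7sf2 and Dhcr7) and 5 fell (Nsdhl, Acly, Fasn, Fads1 and Fads2), where 3.49% of all genes were called (1.47% higher, 2.01% lower). By arrays that do not overlap, 3 members were higher and 10 lower at 10 weeks, against 9.04% and 8.96% of all genes, and 2 were higher and 8 lower at 20 weeks, against 10.7% and 11.9%. The median of the 29 members was -0.16 at 10 weeks and -0.19 at 20 weeks, and that of all genes 0.002 and -0.011.

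The number called at 10 weeks went from 1 to 0 without replicate 1 or 2 of either 10-week group, 20-week nondiabetic replicate 1 or any 20-week diabetic replicate, and to 3 without 10-week nondiabetic replicate 3. At 20 weeks it went from 7 to 3 without 20-week nondiabetic replicate 1 or 2 or 20-week diabetic replicate 2 or 3. Without both doubted arrays 5 members were called over both ages, 0 at 10 weeks and 4 at 20 weeks.

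Of the 29 members, 22 (75.9%) had a difference of the same sign at both ages, against 60.5% of all genes. Both differences were negative for 18 members (62.1%, against 31.1% of all genes) and both positive for 4 (13.8%, against 29.4%). Across the 29 genes, which are not independent replicates, the correlation of the 10-week and 20-week differences was 0.71, and it was 0.27 over the 27 genes left without Tm7sf2 and Dhcr7. It was 0.35 across all genes tested.

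Whether the diabetes difference itself depends on age is tested by the interaction. None of the 29 members passed in limma, as none of all 10581 genes did (0% called, smallest adjusted p over all probe sets 0.0979). An unadjusted p under 0.05 was found for 2 members, Cyp51 (-0.46) and Me1 (1.16), and for 6.97% of all genes. The intervals of the interaction were wide for the genes that rose, from -0.75 to 0.34 for Tm7sf2 and from -0.64 to 0.84 for Dhcr7. A call at 20 weeks that is missing at 10 weeks is therefore not shown to differ between the ages for any member.

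Maturation from 10 to 20 weeks in nondiabetic rats also gave 0 members called in limma, and 0% of all genes (smallest adjusted p over all probe sets 0.0739). An unadjusted p under 0.05 was found for 4 members, all lower at 20 weeks, and for 8.46% of all genes. Cyp51 had the largest of these differences, -0.76 ± 0.13 (adjusted p = 0.19). Its signal was 1195, 1344 and 1130 at 10 weeks and 885.6, 586.2 and 713.1 at 20 weeks, and the ages did not overlap. The dimmer Cyp51 probe set gave -0.32 ± 0.25 (adjusted p = 0.734). The other 3 were Hsd17b7 (-0.73), Msmo1 (-0.31) and Insig1 (-0.27). By arrays that do not overlap, 0 members were higher and 3 lower at 20 weeks (Cyp51, Hsd17b7 and Acaca), against 7.15% and 5.67% of all genes. The Gapdh 3'/5' ratio of the nondiabetic arrays was 1.41 to 1.46 at 10 weeks and 1.42 to 2.09 at 20 weeks. The ages overlapped in this ratio, and its part in these differences was not tested.

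Beside these members stands a list of other genes of the same pathways, of which 32 were tested: other sterol enzymes and partners, genes of sterol uptake, storage and export, SREBP processing, and other fatty acid and glycerolipid synthesis. Over both ages 1 rose, 2 fell and 29 did not pass, and at 20 weeks 1 fell. None passed at 10 weeks, in the interaction or with age. The median over both ages was 0.01. Of all genes tested, 2.77% were called higher and 2.81% lower over both ages, and 2.01% lower at 20 weeks. Dgat2, which makes triglyceride, rose by a log2 difference of 0.60 ± 0.15 (adjusted p = 0.0388), and its second probe set by 0.52 ± 0.13 (adjusted p = 0.0427). The signal of its brighter probe set was 574, 636.7 and 911.4 against 1509, 862.8 and 1133 at 10 weeks, with overlap, and 860, 752.1 and 992 against 1428, 1146 and 1095 at 20 weeks, with none.

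Fads3, the neighbour of Fads1 and Fads2, fell by 0.40 ± 0.10 on the log2 scale over both ages (adjusted p = 0.0431). Elovl1, an elongase of very long saturated fatty acids, fell by 0.30 ± 0.07 (adjusted p = 0.031), and by 0.41 ± 0.10 at 20 weeks (adjusted p = 0.0461). These calls depended on single arrays. That of Dgat2 by its brighter probe set was kept without 10-week nondiabetic replicate 3, 10-week diabetic replicate 2 or 20-week nondiabetic replicate 3 (others 0.0594 to 0.0906), and that by its second probe set without 10-week diabetic replicate 2 or 20-week nondiabetic replicate 3 (others 0.0583 to 0.0995). That of Fads3 was kept when either 20-week nondiabetic replicate 1 or 20-week diabetic replicate 2 was left out (others 0.0539 to 0.1). That of Elovl1 over both ages was kept without 10-week nondiabetic replicate 2, 10-week diabetic replicate 3, 20-week nondiabetic replicate 1 or 20-week diabetic replicate 1 (others 0.0602 to 0.0756), and at 20 weeks without 20-week diabetic replicate 1 (others 0.0521 to 0.168). All of these calls were lost without both doubted arrays, with adjusted p from 0.0596 to 0.125, and with no intensity trend, with adjusted p from 0.0695 to 0.124.

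Fat and adrenal cortex lie against the kidney and are rich in these enzymes, so their markers were read on the same arrays. In bulk tissue, fewer cells of a type and less RNA per cell cannot be told apart. Of 7 fat markers, 4 lay above the limit for dim signals (Adipoq, Cidec, Fabp4 and Lipe), and none was called over both ages. Plin1, Lep and Cfd lay below it. Fabp4 came nearest to a call, at a log2 difference of 2.83 ± 0.78 (adjusted p = 0.063), with signals of 1.749 to 109.3 on the nondiabetic and 205.5 to 571.5 on the diabetic arrays. The value of 1.749 was that of 10-week nondiabetic replicate 1, and the other arrays of its group read 80.75 and 85.54. Of the 4 tested fat markers, 3 had positive differences over both ages and Lipe a negative one, -0.28. The summed signal of the 7 fat markers was 561.1 to 1196 in nondiabetic and 1027 to 1766 in diabetic rats at 10 weeks, and 890.7 to 1049 against 1286 to 2230 at 20 weeks. The sums overlapped between the groups at 10 weeks and were higher with diabetes at 20 weeks. At 20 weeks 3 of the 4 tested fat markers were higher without overlap (Adipoq, Cidec and Fabp4), against 10.7% of all genes. Lipe overlapped there. Of 5 adrenal cortex markers, 1 lay above the limit, Cyp11a1, which was not called (adjusted p = 0.0801), while Cyp11b1, Cyp21a1, Star and Hsd3b1 lay below it. Cyp11a1 read 120.9, 145.6 and 96.39 against 126.8, 214.6 and 190 at 10 weeks, with overlap. At 20 weeks it read 150.9, 117.2 and 173.8 without and 187.5, 329.5 and 598.4 with diabetes. There the diabetic arrays all lay above the nondiabetic ones, as for 10.7% of all genes tested. The adrenal sum was 244.7 to 334.8 and 308 to 358.6 at 10 weeks and 315.6 to 361 and 304.7 to 724 at 20 weeks, and the groups overlapped at both ages. The sum of the proximal tubule markers overlapped too, at 122600 to 134800 against 118500 to 133100 at 10 weeks and 118600 to 140000 against 121700 to 126500 at 20 weeks. Markers of some cell types were called over both ages: 1 of 8 of the proximal tubule was lower (Slc13a3, -0.29), 2 of 4 of podocytes were lower (Nphs1, -0.48, and Ptpro, -0.40), and 1 of 4 of endothelium was lower (Vwf, -1.78). Of 4 leukocyte markers 1 was higher (Csf1r, 0.36), and of 4 collecting duct markers 1 was higher (Aqp2, 0.55) and 1 lower (Atp6v1b1, -0.37), while 0 of 3 of the thick ascending limb passed. Of all genes tested, 2.77% were called higher over both ages and 2.81% lower. The summed podocyte signal at 20 weeks was 5046 to 5443 without and 4171 to 4596 with diabetes, that of endothelium 6086 to 7037 and 5035 to 5319, and that of leukocytes 6050 to 9536 and 8699 to 13080. The podocyte and endothelium sums did not overlap at that age and the leukocyte sums did. The part of these cell types in the differences above was not tested.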

How the data were processed

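Kidney cortex of male rats was measured on 12 one-colour arrays, 3 in each of 4 groups. The deposited values are probe-set intensity signals on a linear scale, made with GCOS per the submitters' processing notes; its version and the summary method: not given in the sources used here. The trimmed mean was 500 on each array, so the authors had scaled the arrays and a shift of most transcripts could not be seen. Of 31099 probe sets, 57 controls and the dimmest 40% of the rest were left out and 18625 tested, after a floor of 1 and log2. A gene was counted by its brightest probe set, and only probe sets naming 1 gene were used.

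Group means were fitted to all 12 arrays with limma 3.58.1 in R 4.3.3 (eBayes with an intensity trend, 8 residual degrees of freedom, two-sided, Benjamini-Hochberg over all probe sets, threshold 0.05), with 5 comparisons. The number of arrays limits the precision. Genes called in any comparison were described in full, the others by role, and called genes of the list of other pathway genes by name. The members, lists and alternatives were chosen with earlier results of these data known. Alternatives were other scalings, filters, offsets and variance models, array weights, gene means, the replicate number as a block, 2 groups fitted alone, and arrays left out singly or both doubted arrays together.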

Additional observations from a re-analysis of the deposited data

How the results depend on the processing

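Limits: 3 arrays a group limit the precision, and dim signals leave Acacb and Scd untested. Over 11 alternatives at most, and 12 arrays left out in turn, no named value changed its sign; of 515 recomputed values for the 23 calls, 343 kept the call and 172 lost it. The number of members called moved by over 1.5 times under these settings. With no intensity trend it was 0 at 10 weeks and 4 at 20 weeks. With the 2 groups fitted alone it was 0 and 4. Without both doubted arrays it was 5 over both ages, 0 at 10 weeks and 4 at 20 weeks. Leaving out 1 array gave 6 to 9 members over both ages, 0 to 3 at 10 weeks, 3 to 7 at 20 weeks, and 0 to 0 in the interaction and with age. The cause was not tested. The replicate number as a block gave 7, 1, 5, 0 and 0 members in the 5 comparisons. Deviations of same-numbered arrays from their group means correlated weakly (18 pairs, -0.151 to 0.149, 4 above 0.1). The median was 0.032, against -0.016 for arrays of different numbers. With 3 arrays a group this cannot decide whether the numbers pair the samples. With the block these calls did not pass: at 20 weeks Dhcr7 (adjusted p = 0.0505), Nsdhl (0.0558) and Elovl1 (0.0783), and over both ages Sc5d (0.0545), the dimmer Fasn probe set (0.0662), Fads3 (0.0691), Elovl1 (0.0557) and the second Dgat2 probe set (0.0507).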
